A study of Mus musculus with 24 samples.

Results

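The genes described here are 10 transcripts of the endoplasmic reticulum (ER) folding and stress machinery: Hspa5, Hsp90b1, Calr, Canx, Pdia3, Pdia4, Pdia6, Sdf2l1, Dnajb9 and Derl1. They were listed by symbol as known ER genes, with earlier results of these data already known, and all 10 were found among 55471 annotated genes and passed the filter on low counts in every comparison. Polyadenylated RNA was sequenced from B6D2F1 mouse embryos, a hybrid of C57BL/6 and DBA/2 strains, in 24 libraries of 10 pooled embryos each; the last number of the strain label counts upward over the libraries. Every group had 4 libraries. Ttf1 KO embryos came from zygotes injected with Cas9 protein and 3 guide RNAs against Ttf1, whose protein stops RNA polymerase I at the end of ribosomal RNA genes. Zfp622 KO embryos had received Cas9 with 3 guide RNAs against Zfp622, a zinc finger protein whose yeast relatives act in maturation of the large ribosomal subunit. Wild-type (WT) embryos served as controls, and whether they were injected is not stated. All 3 genotypes were collected at the morula stage and at the late 2-cell stage (L2C). A pool averages over embryos that may carry different edits.

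The ER folds secreted and membrane proteins. Hspa5 (BiP, GRP78) is its Hsp70 chaperone, Hsp90b1 (GRP94) its Hsp90 chaperone, and Calr and Canx are the lectin chaperones that hold newly made glycoproteins for the disulfide isomerase Pdia3. Pdia4 and Pdia6 are further disulfide isomerases. Dnajb9 is a J protein that assists Hspa5, Sdf2l1 a partner of such J proteins, and Derl1 belongs to the channel that returns misfolded proteins to the cytosol for degradation. When unfolded proteins accumulate, the sensors ATF6, IRE1 and PERK raise many of these genes through the cleaved ATF6 protein, the spliced form of XBP1 and ATF4. Mouse embryos without Hspa5 are known to die around implantation.

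The promoter stretches that hold the ER stress response element (ERSE) are shown first, as several of these genes carry it. The ERSE is the element to which NF-Y and ATF6 bind in mammalian chaperone promoters, and it was searched as CCAAT and CCACG with 9 bases of any kind between them, on both strands of RefSeq promoter windows of GRCm38.p6, from 250 bases before to 50 bases after each gene's start. Windows were found for 9 of the 10 genes, Derl1 having none. The first stretch is 30 bases of Hspa5 at chr2:34772020-34772049, plus strand, with the ERSE in capitals. It lies before the RefSeq start but inside the Ensembl gene used for the counts, which starts at 34771970. The other stretches lie before both annotated starts. The second is Hspa5 at chr2:34771840-34771969, plus strand, with a variant of the unfolded protein response element (UPRE), TGACG followed by TGA, in capitals. In the other 4 capitals mark the ERSE: Hsp90b1 at chr10:86705510-86705694, minus strand, Calr at chr8:84846935-84847181, minus strand, Pdia6 at chr12:17266339-17266544, plus strand, and Canx at chr11:50325674-50325923, minus strand. All are written 5′ to 3′ along the gene.
Hspa5, ERSE: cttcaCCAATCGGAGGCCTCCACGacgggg
Hspa5, further upstream: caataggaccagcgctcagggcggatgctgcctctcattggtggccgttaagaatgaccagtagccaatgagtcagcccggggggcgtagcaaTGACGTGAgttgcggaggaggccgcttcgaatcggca
Hsp90b1: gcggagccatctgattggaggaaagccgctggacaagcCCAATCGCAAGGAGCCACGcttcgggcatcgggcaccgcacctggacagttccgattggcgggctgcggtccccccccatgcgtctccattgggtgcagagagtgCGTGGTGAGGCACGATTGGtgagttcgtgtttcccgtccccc
Calr: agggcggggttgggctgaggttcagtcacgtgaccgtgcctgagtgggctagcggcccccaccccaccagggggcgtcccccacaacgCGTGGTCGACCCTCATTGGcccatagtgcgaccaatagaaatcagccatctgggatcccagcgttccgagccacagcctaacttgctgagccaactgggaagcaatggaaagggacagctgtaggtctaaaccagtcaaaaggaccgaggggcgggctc
Pdia6: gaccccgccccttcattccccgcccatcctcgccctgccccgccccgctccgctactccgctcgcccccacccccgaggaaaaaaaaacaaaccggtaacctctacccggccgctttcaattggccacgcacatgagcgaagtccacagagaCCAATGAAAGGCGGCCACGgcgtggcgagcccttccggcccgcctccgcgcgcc
Canx: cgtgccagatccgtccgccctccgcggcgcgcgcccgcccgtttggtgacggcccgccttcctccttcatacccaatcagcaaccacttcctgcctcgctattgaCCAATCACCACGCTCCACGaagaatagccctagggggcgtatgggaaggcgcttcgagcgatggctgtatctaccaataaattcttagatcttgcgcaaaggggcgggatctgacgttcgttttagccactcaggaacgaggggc

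A whole ERSE stood in 5 of the 9 windows, against 0.119% of 32851 RefSeq promoter windows. Counted from the RefSeq start, its first and last bases lay at -65 and -47 in Hspa5, at -98 and -80 in Pdia6 and at -145 and -127 in Canx. Calr held it on the opposite strand, from -162 to -144. Hsp90b1 held it at 2 places, from -212 to -194 and, on the opposite strand, from -107 to -89. The UPRE variant, which 0.441% of windows hold, was present in Hspa5 alone among the 9, from -157 to -150. The UPRE, TGACG followed by TGG (0.676% of windows), and the ERSE-II, ATTGG and CCACG with 1 base between them (0.0365%), were in 0 of 9. The first box of the ERSE on its own, CCAAT, was in all 9 windows (37.4% of all windows), and its last box, CCACG, in all but Pdia3 (32.8%); both counts include the boxes inside a whole ERSE. Pdia3, Pdia4, Dnajb9 and Sdf2l1 had no whole ERSE in their windows. A match is a description of letters and not a measured binding site.

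**Figure D1:**
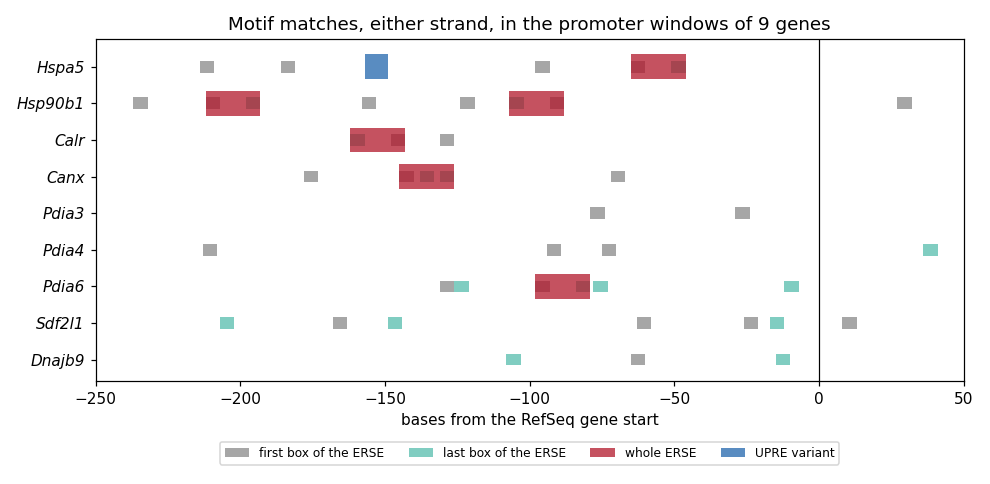
Position of each motif match, in bases from the RefSeq start (horizontal axis), in the promoter windows of 9 genes (rows); red bars are whole ERSEs, the blue bar the UPRE variant, and grey and green bars the first and last box, which also lie inside each red bar. Whole ERSEs are drawn in Hspa5, Hsp90b1 (2), Calr, Canx and Pdia6.

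Reads counted in genes per library lay between 14420604 and 15479299 in Ttf1 KO morulae, between 12690369 and 14448490 in Zfp622 KO morulae and between 14363767 and 17807596 in WT morulae. The L2C libraries held 10538723 to 13528954. Levels are CPM, counts scaled to the library's total after TMM correction over all 24 libraries, and a gene was called at an adjusted p of at most 0.05 by edgeR's quasi-likelihood test. The targeted transcripts were lower in their own knockout: Ttf1 by a log2 fold change of -0.76 (adjusted p = 3.47e-05) in Ttf1 KO morulae and -1.45 at L2C, and Zfp622 by -1.78 (adjusted p = 0.00105) in Zfp622 KO morulae and -1.42 at L2C. The 7 morula markers summed to 876 to 1150 CPM in Ttf1 KO morulae, 909 to 1270 CPM in Zfp622 KO morulae and 1570 to 1720 CPM in WT morulae, and to at most 170 CPM in any L2C group; 5 of the 7 were called lower in Ttf1 KO and 2 in Zfp622 KO morulae. The 6 late 2-cell markers summed to 16.1 to 99.7, 34.7 to 49.3 and 12.4 to 41.7 CPM in the same morula groups, and at L2C to 369 to 607, 421 to 866 and 590 to 904 CPM. Of these 6, 5 were tested at morula, and 1 was called higher in Ttf1 KO and 0 in Zfp622 KO. Their median log2 fold changes were 1.37 and 0.90, with 0 of 5 below 0 in either. At L2C 0 of 5 were called, with medians of -0.41 and -0.43. Cumulus markers summed to at most 0.971 CPM at morula, with Has2 at 0 in all 3 genotypes and a sum of at most 0.246 CPM in WT. Sperm markers summed to 0.467 to 1.9 CPM in Ttf1 KO, 0.543 to 2.12 CPM in Zfp622 KO and 0.0759 to 0.491 CPM in WT morulae. Of the 5 sperm markers Tnp1 was at 0 in all 3, and Prm2, the 1 tested, was called higher in both knockouts. Blood markers summed to 25.1 to 43.4, 31.6 to 44.5 and 11.5 to 15.7 CPM, with Fcer1g at 0 in all 3, and the 2 of 6 tested, Hba-a1 and Cd68, were called higher in both knockouts. The part of these marker differences in the results on the chaperones was not tested. All Ttf1 KO libraries were read on lane 1 and all others on lane 2, so that lane and genotype cannot be told apart in the Ttf1 contrasts. The libraries are separate pools by their labels, which do not say whether they came from separate injection days, so p-values measure the spread between pools. In these pooled embryos fewer cells of a type and less RNA per cell cannot be told apart either.

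In Ttf1 KO morulae 8 of the 10 genes fell and 1 rose, where 17.9% of 14865 genes tested were called lower and 21.3% higher (39.2% in all). The median log2 fold change of the 10 was -0.90, beside 0.04 over all genes tested. In Zfp622 KO morulae 7 fell and none rose, where 13.5% of all genes were called lower and 15.6% higher (29.1% in all); the median of the 10 was -0.69, beside 0.03 over all genes. Both contrasts share the same 4 WT libraries. The largest falls in both were those of the Hsp70 and Hsp90 chaperones, Canx did not pass the test in either, and Dnajb9 was the 1 gene called higher, in Ttf1 KO. All 12 morula libraries share 1 estimate of the spread, so leaving out a library of either knockout can move both contrasts. Of the 7 falls in Zfp622 KO, 2 were called without WT library 1, 3 without Zfp622 KO library 3 or 4, 4 without WT library 4, Zfp622 KO library 2 or Ttf1 KO library 2, 4 with total counts as the scale and 3 without a filter on low counts. The falls in Ttf1 KO numbered 7 or 8 in every fit that left out a library. The column headers of WT libraries 3 and 4, like that of WT L2C library 4, carry a second number that no label explains. Without WT morula libraries 3 and 4, Hspa5 had -1.88 (adjusted p = 0.0269) in Ttf1 KO and the Ttf1 KO falls numbered 7. Derl1 alone was then called in Zfp622 KO.

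Hspa5, the Hsp70 of the ER (ENSMUSG00000026864, chr2:34771970-34777547, plus strand), measured 182, 219.7, 179.5 and 475 CPM in Ttf1 KO morulae. In Zfp622 KO morulae it measured 411, 347, 354 and 212 CPM, and in WT morulae 1280.2, 656, 682 and 878 CPM. No knockout library reached the lowest WT library, and within groups Ttf1 KO library 4 and WT library 1 stood highest. The mean was 264 ± 142 CPM in Ttf1 KO and 331 ± 84.0 CPM in Zfp622 KO, against 874 ± 288 CPM in WT (SD, n = 4 each). The log2 fold change was -1.71 (SE 0.38, adjusted p = 0.00597) for Ttf1 KO and -1.39 (SE 0.38, adjusted p = 0.0214) for Zfp622 KO. Without Ttf1 KO library 4 the Ttf1 value was -2.19, and without WT library 1 it was -1.49 (adjusted p = 0.0153). The Zfp622 call was lost without WT library 1 (-1.17, adjusted p = 0.0527) and without Zfp622 KO library 4 (-1.24, adjusted p = 0.0601).

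Hsp90b1, the Hsp90 of the ER (ENSMUSG00000020048, chr10:86690209-86705509, minus strand), measured 58.3, 81.7, 51.4 and 184 CPM in Ttf1 KO morulae. Its levels were 149, 88.7, 106.5 and 82.3 CPM in Zfp622 KO morulae and 373, 184, 218 and 257 CPM in WT morulae. Ttf1 KO library 4 lay level with WT library 2, so the Ttf1 KO and WT ranges met, while all Zfp622 KO libraries lay below WT. The fall was -1.44 (SE 0.42, adjusted p = 0.0225) in Ttf1 KO and -1.26 (SE 0.42, adjusted p = 0.0494) in Zfp622 KO. The Ttf1 call was lost, with adjusted p from 0.0545 to 0.059, when WT library 1 or Ttf1 KO library 1, 2 or 3 was left out, and the value was -2.03 without Ttf1 KO library 4. In Zfp622 KO it held in 4 of 12 such fits, with the value between -1.49 and -1.05, and was lost without any of the 4 WT libraries, Zfp622 KO libraries 2 to 4 or Ttf1 KO library 2 (adjusted p up to 0.124).

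The lectin chaperones of the glycoprotein cycle differed from each other. Calr, the soluble one (ENSMUSG00000003814, chr8:84841850-84846934, minus strand), measured 139, 162, 132 and 254 CPM in Ttf1 KO morulae. Zfp622 KO morulae had 276, 238, 216 and 159 CPM, and WT morulae 407, 287, 339 and 396 CPM. All knockout libraries lay below all WT libraries, by little in the highest Zfp622 KO library. The fall was -1.04 (SE 0.23, adjusted p = 0.00467) in Ttf1 KO and -0.67 (SE 0.23, adjusted p = 0.0487) in Zfp622 KO, and the second was lost without WT library 1, 3 or 4, Zfp622 KO library 2, 3 or 4 or Ttf1 KO library 1 or 2 (adjusted p up to 0.119). Canx, the membrane-bound one (ENSMUSG00000020368, chr11:50293961-50325673, minus strand), averaged 558 ± 33.0 CPM in Ttf1 KO, 559 ± 37.2 CPM in Zfp622 KO and 568 ± 28.5 CPM in WT morulae. Its log2 fold change was -0.01 in both knockouts, with an SE of 0.064 each (adjusted p = 0.887 and 0.937), and turned to 0.02 without Ttf1 KO library 3 and to 0.01 without Zfp622 KO library 3 or with total counts as the scale. An ERSE thus stood in the promoter windows of 4 genes that fell and of Canx, which did not pass. Pdia3, Pdia4 and Sdf2l1, with no whole ERSE in their windows, were called lower in Ttf1 KO too. Pdia3 and Pdia4 were also called lower in Zfp622 KO. Derl1, called lower in both, had no window.

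Of the disulfide isomerases, Pdia4 (ENSMUSG00000025823, chr6:47796141-47813430, minus strand) measured 62.8, 66.7, 73.02 and 102 CPM in Ttf1 KO morulae. In Zfp622 KO morulae its levels were 109.9, 88.0, 90.4 and 57.7 CPM, and in WT morulae 179, 115, 145 and 151 CPM. Neither knockout overlapped WT, and the falls were -0.94 (SE 0.21, adjusted p = 0.00396) and -0.75 (SE 0.21, adjusted p = 0.0177), called in all 12 fits that left out a library. Pdia6 (ENSMUSG00000020571, chr12:17266545-17284770, plus strand) measured 69.1, 67.5, 58.5 and 119 CPM in Ttf1 KO, 109.8, 78.1, 93.2 and 81.5 CPM in Zfp622 KO and 245, 116, 128 and 159.9 CPM in WT morulae. Ttf1 KO library 4 lay above the lowest WT library, and all Zfp622 KO libraries lay below WT. Its falls were -1.03 (SE 0.28, adjusted p = 0.0138) and -0.83 (SE 0.28, adjusted p = 0.0464), the second lost without WT library 1 or 4, Zfp622 KO library 2, 3 or 4 or Ttf1 KO library 1 or 2 (adjusted p up to 0.117).

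Pdia3, the isomerase that works with Calr and Canx (ENSMUSG00000027248, chr2:121413775-121438687, plus strand), changed less. It ranged from 513 to 564 CPM in Ttf1 KO, from 595 to 672 CPM in Zfp622 KO and from 703 to 787 CPM in WT morulae, so that the 3 groups lay apart from each other. The log2 fold change was -0.42 (SE 0.063, adjusted p = 0.000106) in Ttf1 KO and -0.20 (SE 0.063, adjusted p = 0.0278) in Zfp622 KO, the second lost without WT library 1 or Zfp622 KO library 3 (adjusted p = 0.0591 and 0.0525). Derl1, of the retrotranslocation channel (ENSMUSG00000022365, chr15:57869502-57892448, minus strand), varied least around its group means among the genes that fell by more than 0.5. It measured 43.9, 40.0, 38.7 and 41.8 CPM in Ttf1 KO, 52.3, 41.4, 43.9 and 44.5 CPM in Zfp622 KO and 78.4, 73.05, 77.8 and 73.002 CPM in WT morulae. No knockout library came near WT, and the falls were -0.87 (SE 0.086, adjusted p = 3.74e-06) and -0.72 (SE 0.086, adjusted p = 4.16e-05), called in all 12 fits that left out a library.

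Dnajb9 and Sdf2l1, which work with Hspa5, were called in Ttf1 KO only, Dnajb9 higher and Sdf2l1 lower; the difference between the knockouts passed for neither. Dnajb9 (ERdj4, ENSMUSG00000014905, chr12:44205559-44210326, minus strand) is a J protein that assists Hspa5 and brings it to the IRE1 sensor. Dnajb9 measured 543, 733, 856 and 755 CPM in Ttf1 KO morulae. It stood at 559, 661, 661 and 809 CPM in Zfp622 KO and at 591, 478, 508 and 596 CPM in WT morulae. Both knockouts overlapped WT, through their lowest libraries. Dnajb9 rose by 0.42 (SE 0.14, adjusted p = 0.0284) in Ttf1 KO, a call lost without Ttf1 KO library 2, 3 or 4 or WT library 2 or 3 (adjusted p up to 0.0895), and its value in Zfp622 KO was 0.32 (adjusted p = 0.103). Sdf2l1, which binds J proteins of the ER (ENSMUSG00000022769, chr16:17130138-17132383, minus strand), ranged from 16.5 to 21.7 CPM in Ttf1 KO, from 21.5 to 27.3 CPM in Zfp622 KO and from 23.98 to 29.2 CPM in WT morulae. It fell by 0.45 on the log2 scale (SE 0.12, adjusted p = 0.0078) in Ttf1 KO without overlap, and its value in Zfp622 KO was -0.17 (adjusted p = 0.32) with overlap.

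By library ranges, 6 of the 10 genes lay wholly below WT in Ttf1 KO morulae and 7 in Zfp622 KO morulae, and none lay wholly above. Among genes with at least 80 counts over the 8 libraries compared, 18.5% and 17% lay wholly below WT and 18.3% and 14.4% wholly above. The summed level of the 10 transcripts was 2565 ± 352 CPM in Ttf1 KO and 2767 ± 90.4 CPM in Zfp622 KO, against 3740 ± 606 CPM in WT morulae.

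**Figure D2:**
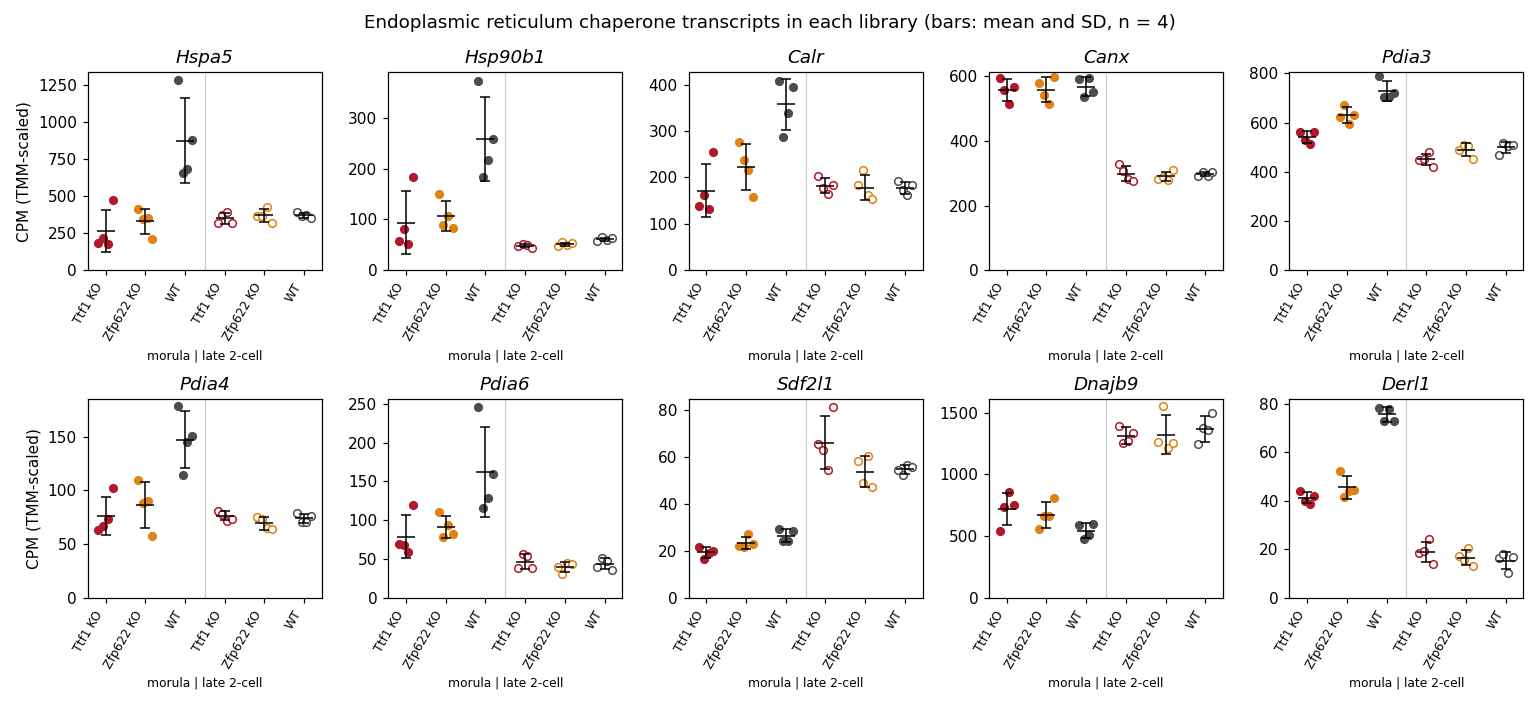
CPM of each of the 10 genes in each library (points; filled, morula; open, late 2-cell) for Ttf1 KO (red), Zfp622 KO (orange) and WT (grey), with mean and SD over 4 libraries; each vertical axis starts at 0. WT morulae stand above both knockouts for Hspa5, with 1 Ttf1 KO library at 475 CPM, while Canx is level across genotypes within a stage and Dnajb9 and Sdf2l1 are highest at the late 2-cell stage.

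The 2 knockouts were then set against each other. At morula 0 of the 10 genes passed, where 0.229% of all genes did. By edgeR 2 had an unadjusted p under 0.05, as did 1959 of 14865 genes tested, and DESeq2 called 1. Those 2 were Pdia3, at a log2 difference of -0.22 (SE 0.063, adjusted p = 0.143) between Ttf1 KO and Zfp622 KO, whose libraries did not overlap (2.76% of genes lay wholly lower in Ttf1 KO than in Zfp622 KO), and Sdf2l1 at -0.28 (SE 0.12, adjusted p = 0.344). DESeq2 gave Pdia3 an adjusted p of 0.0397. Of the 10 differences 9 pointed below 0, from -0.37 in Calr to 0.10 in Dnajb9, where the median over all genes tested was 0.002. The sign turned in 2 of 12 fits that left out a library for Hsp90b1 and in 3 of 12 for Canx. Several of the 10 genes varied together between libraries, so their signs are not independent. At L2C 0 of 10 passed as well (0.0358% of all genes), and DESeq2 called 0. Sdf2l1 alone had an unadjusted p under 0.05 by edgeR (0.30, adjusted p = 0.531), as did 1362 of 16770 genes tested.

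At L2C, before the stage at which the differences above were measured, 0 of 10 genes passed in either knockout. All genes tested gave 1.54% called in Ttf1 KO and 0.0179% in Zfp622 KO. By unadjusted p under 0.05, edgeR had 3 of 10 in Ttf1 KO (Hsp90b1, Sdf2l1 and Pdia3) and 1 of 10 in Zfp622 KO (Hsp90b1). Of all 16770 genes tested, 2676 and 1079 had such a p. DESeq2 called 1 and 0 of the 10. Hsp90b1 came nearest. It measured 47.1, 50.9, 49.3 and 44.4 CPM in Ttf1 KO, 47.3, 54.7, 48.9 and 53.0 CPM in Zfp622 KO and 58.1, 64.9, 59.4 and 62.9 CPM in WT, so that every knockout library lay below every WT library. Its log2 fold change was -0.36 (SE 0.093, adjusted p = 0.0557) in Ttf1 KO and -0.27 (SE 0.093, adjusted p = 0.681) in Zfp622 KO. DESeq2 called the first (adjusted p = 0.00569), as did edgeR without Zfp622 KO library 2 (adjusted p = 0.0413). Libraries lay wholly below WT in 5.15% of genes in Ttf1 KO and 1.53% in Zfp622 KO. Hspa5 stood at 352 ± 36.8 CPM in Ttf1 KO, 372 ± 44.3 CPM in Zfp622 KO and 371 ± 17.6 CPM in WT, a log2 fold change of -0.08 (SE 0.089) and 0.00 (SE 0.089). Calr, Canx, Pdia4 and Pdia6 had values between -0.14 and 0.08, and Derl1 of 0.30 (SE 0.20) and 0.11 (SE 0.20), all overlapping WT. Sdf2l1 had 0.27 (SE 0.12, adjusted p = 0.266) in Ttf1 KO and -0.03 (SE 0.12) in Zfp622 KO. Pdia3 had -0.15 (SE 0.068, adjusted p = 0.274) and -0.03 (SE 0.068), and Dnajb9 -0.06 and -0.05 (SE 0.079 each). The libraries of these genes overlapped WT too.

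Whether a knockout's effect differed between stages was tested directly, as morula effect minus L2C effect. For Ttf1 KO 7 of 10 genes were called lower and 1 higher, where 8.65% and 12.5% of 18864 genes were (21.2% in all). The values were -1.65 for Hspa5 (SE 0.39, adjusted p = 0.00496), -1.17 for Derl1 (SE 0.22, adjusted p = 0.00035), -1.12 for Pdia6, -1.09 for Calr, -0.99 for Pdia4, -0.72 for Sdf2l1, -0.28 for Pdia3 and 0.47 for Dnajb9. Hsp90b1 had -1.10 (adjusted p = 0.0746; -1.66, adjusted p = 0.000199, without Ttf1 KO morula library 4) and Canx -0.02. The Dnajb9 call was lost in 11 and the Pdia3 call in 7 of 24 fits that left out a library. For Zfp622 KO 3 of 10 were called, all lower, where 4.21% of genes were called lower and 6.45% higher (10.7% in all): Hspa5 at -1.40 (SE 0.38, adjusted p = 0.0253), Derl1 at -0.84 (adjusted p = 0.0135) and Pdia4 at -0.67 (adjusted p = 0.0421). Of 24 fits that left out a library, the Pdia4 call was lost in 17 (adjusted p up to 0.0956) and the Hspa5 call in 4: without WT morula library 1, Zfp622 KO morula library 4, WT L2C library 3 or Zfp622 KO L2C library 3 (adjusted p from 0.0509 to 0.0571). The count ranged from 1 to 5.

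Between the stages in WT embryos, 8 of the 10 genes were higher at morula than at L2C and 2 were lower, where 37.9% of 18864 genes were called higher and 46.1% lower (84% in all) and the median over all genes was -0.30. Derl1 rose most, to 75.5 ± 2.92 CPM in WT morulae against 15.3 ± 3.55 CPM at L2C (log2 fold change 2.34, SE 0.16). Hsp90b1 averaged 258 ± 82.2 against 61.3 ± 3.12 CPM (2.10, SE 0.31) and Pdia6 162 ± 58.5 against 43.7 ± 6.90 CPM (1.92, SE 0.24). With TMM scaling and all libraries, these genes of folding and retrotranslocation thus rose by more than 1.9 on the log2 scale. Without WT morula library 1 the rises of Hsp90b1 and Pdia6 were 1.88 and 1.66. The rises of Hspa5 (1.27, SE 0.27), Calr (1.03), Pdia4 (1.02), Canx (0.96) and Pdia3 (0.58) were smaller, with adjusted p from 2.24e-13 to 0.000293. Dnajb9 and Sdf2l1 went the other way. Dnajb9 averaged 543 ± 58.96 CPM in WT morulae against 1371 ± 103.3 CPM at L2C (-1.30, SE 0.11), and Sdf2l1 26.5 ± 2.79 against 54.8 ± 1.81 CPM (-1.02, SE 0.12). None of the 10 overlapped between the WT stages, where 39.2% of genes lay wholly higher and 43.3% wholly lower. With total counts as the scale the median of all genes moved by -0.575 and Pdia3 lost its call (0.00, adjusted p = 0.987). The other 9 kept their direction and call, with Derl1 at 1.76, Hsp90b1 at 1.53, Pdia6 at 1.35, Hspa5 at 0.69 and Canx at 0.38.

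In each knockout 5 of the 10 genes lay wholly higher at morula than at L2C, 2 lay wholly lower and 3 overlapped. All genes gave 37.5% wholly higher and 40.6% wholly lower in Ttf1 KO, and 37.1% and 41.5% in Zfp622 KO. The 3 that overlapped in both were Hspa5, Calr and Pdia4. Hspa5 was at 264 ± 142 CPM in Ttf1 KO morulae against 352 ± 36.8 CPM at L2C, and at 331 ± 84.0 against 372 ± 44.3 CPM in Zfp622 KO.

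**Figure D3:**
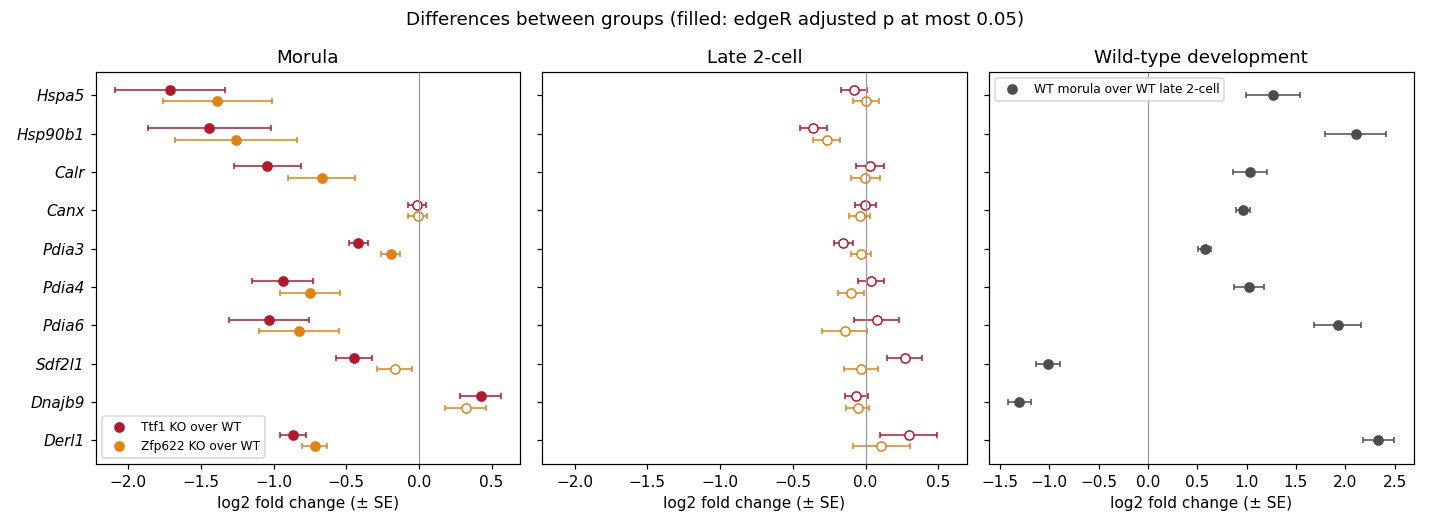
Log2 fold change of the 10 genes with its SE (horizontal axis) in morulae (left) and at the late 2-cell stage (middle) for Ttf1 KO (red) and Zfp622 KO (orange) over WT, and in WT morula over WT late 2-cell embryos (right); filled points were called at an adjusted p of at most 0.05. The 8 and 7 genes called lower at morula lie left of 0, from -1.71 for Hspa5 in Ttf1 KO, while no point is filled at the late 2-cell stage.

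Levels of different genes were ordered per kilobase of exon (RPKM). In WT morulae Pdia3 (232), Dnajb9 (213) and Hspa5 (207) led, followed by Calr (124) and Canx (121), then Hsp90b1 (64.0), Pdia4 (61.4), Pdia6 (43.3), Sdf2l1 (23.9) and Derl1 (22.7). Among neighbours in this order only Canx and Hsp90b1, and Pdia6 and Sdf2l1, differed by more than the sum of their SDs. In Ttf1 KO morulae Dnajb9 (283) and Pdia3 (172) led, Canx (119) came next, and Hspa5 (62.5 ± 33.6) lay level with Calr (59.6 ± 19.6). Zfp622 KO morulae had the same first 5 genes in the same order, with Hspa5 at 78.3 ± 19.9 RPKM. At WT L2C Dnajb9 (538) stood far above Pdia3 (159) and Hspa5 (87.8), and the order Dnajb9, Pdia3, Hspa5 was also that of both knockouts at L2C.

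Libraries of a group also differed together. After each group's mean was removed, the 10 pairs among Hspa5, Hsp90b1, Calr, Pdia4 and Pdia6 correlated at 0.756 to 0.946 over the 12 morula libraries (median 0.903). All 45 pairs of the 10 genes had a median of 0.295, and Hspa5 against all other genes tested a median of -0.03. These 5 genes were grouped after their values were seen, and each library's 5 values share its RNA and depth. At L2C the same 10 pairs had a median of -0.0505 and ran from -0.795 to 0.842. Without removal of group means, the correlation with Hspa5 over the 12 morula libraries was 0.977 for Hsp90b1, 0.976 for Calr, 0.968 for Pdia4, 0.958 for Pdia6, 0.871 for Derl1, 0.85 for Pdia3, 0.725 for Sdf2l1, 0.154 for Canx and -0.553 for Dnajb9.

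Outside the 10, genes were ranked by the correlation of their log2 CPM with that of Hspa5 over these 12 libraries. Only genes tested with a group mean of at least 5 CPM were ranked, and predicted and unnamed genes were left out. The 6 highest of 8496 were Crat (0.977), Manf (0.97), Rac1 (0.959), Ankzf1 (0.957), Slc35b4 (0.956) and Xbp1 (0.955). Crat reached 5 CPM in WT alone (3.465 CPM in Ttf1 KO, 3.809 in Zfp622 KO and 5.895 in WT morulae). Manf encodes a secreted ER stress protein and Xbp1 the transcription factor that IRE1 splices. Xbp1 averaged 28.7 ± 14.8 CPM in Ttf1 KO, 36.5 ± 8.68 CPM in Zfp622 KO and 83.9 ± 13.8 CPM in WT morulae, a fall of -1.53 (SE 0.32, adjusted p = 0.00365) and -1.18 (SE 0.32, adjusted p = 0.0181). At L2C it averaged 4.25, 3.49 and 4.32 CPM in the same order. Gene counts do not separate spliced from unspliced Xbp1. Over the 12 L2C libraries the genes most like Hspa5, of 8687, were Mrpl14 (0.929), Mtap (0.917), Aurka (0.905), Dclre1b, Mettl5 and Rtel1, none of them in the morula list. Mrpl14 too reached 5 CPM in WT alone (4.394 CPM in Ttf1 KO, 4.484 in Zfp622 KO and 5.026 in WT).

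**Figure D4:**
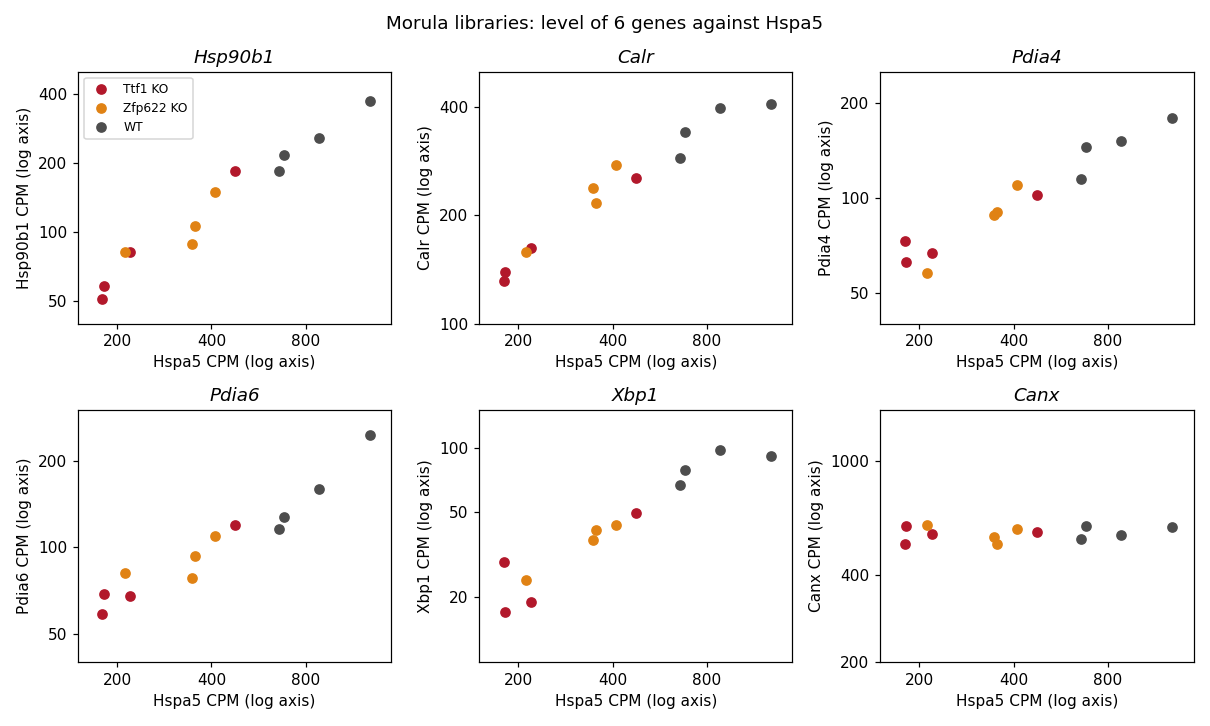
CPM of Hsp90b1, Calr, Pdia4, Pdia6, Xbp1 and Canx (vertical, log axis) against CPM of Hspa5 (horizontal, log axis) in the 12 morula libraries of Ttf1 KO (red), Zfp622 KO (orange) and WT (grey). Every gene shown except Canx climbs with Hspa5 across the 12 libraries (correlation with Hspa5 from 0.955 to 0.977), while Canx stays level (0.154). Those that climb were picked after their values were seen, and differences between the groups are part of each correlation.

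A wider set of 78 ER genes in 7 lists placed the 10 in their pathway. In Ttf1 KO morulae 25 of the 76 tested were called lower, 10 higher and 41 neither, with a median of -0.14. In Zfp622 KO morulae 19 were called lower, 9 higher and 48 neither, with a median of -0.08. The 10 genes described above had a median of -0.90 and -0.69, and the shares of all genes called were those given for these contrasts.

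The lists are read against 17.9% lower and 21.3% higher among all genes in Ttf1 KO, and 13.5% and 15.6% in Zfp622 KO, and the lists were not tested. Of 11 further disulfide enzymes 5 were lower and 1 higher in Ttf1 KO, and 4 lower and 2 higher in Zfp622 KO. The isomerase Pdia5 had -0.97 and -0.997, P4hb, the classic protein disulfide isomerase, -0.53 and -0.44, and the chaperone Erp29 -0.71 and -0.51. Among 11 Hsp70 partners and secreted targets, 4 were lower and 1 higher in Ttf1 KO, and 5 lower and 1 higher in Zfp622 KO. Manf had -0.70 and -0.51, the J protein Dnajb11 -0.44 and -0.43, and Sil1, the nucleotide exchange factor of Hspa5, was called higher in Ttf1 KO (0.56). Of the glycoprotein quality control genes 10 of 11 were tested, and 5 were lower and 1 higher in Ttf1 KO, and 2 lower and 1 higher in Zfp622 KO. The cargo receptor Lman1 had -0.76 and -0.42 and the mannosidase-like Edem2 -0.64 and -0.36, while Calr3, the testis form of calreticulin, was higher (2.68 and 1.32).

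In ER-associated degradation 6 of 15 genes were lower in Ttf1 KO and 3 in Zfp622 KO, and none was higher. Vcp, the ATPase that pulls substrates out of the membrane, averaged 261 ± 28.0 CPM in Ttf1 KO, 292 ± 39.9 CPM in Zfp622 KO and 443 ± 21.9 CPM in WT morulae (-0.75, adjusted p = 3.53e-05, and -0.59, adjusted p = 0.000455). Of 13 translocon and signal peptidase genes 3 were lower in each knockout and none higher. They were Ssr3 (-0.47 and -0.42), Spcs3 (-0.36 and -0.31) and Sec61a1 (-0.30 and -0.22).

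Of 11 sensors and transcription factors 5 were higher and 1, Xbp1, lower in Ttf1 KO, and 2 were higher and 2 lower in Zfp622 KO. Nfyb, a subunit of the factor NF-Y that binds the CCAAT box, averaged 358 ± 27.0 CPM in Ttf1 KO, 299 ± 50.4 CPM in Zfp622 KO and 129 ± 18.6 CPM in WT morulae (1.49, adjusted p = 1.42e-06, and 1.23, adjusted p = 1.26e-05). Atf4, the effector of PERK, was called higher in Ttf1 KO (0.63), Nfya in Zfp622 KO (0.51), and Creb3l2 lower in Zfp622 KO (-1.14). Of the 5 tested outputs of PERK and stress signalling, 2 were higher and 1 lower in Ttf1 KO and 3 higher in Zfp622 KO. Asns, asparagine synthetase, had 0.48 and 0.62, and Ppp1r15a (GADD34), which guides removal of the phosphate that PERK adds, 0.33 in Zfp622 KO, while Trib3 had -0.55 in Ttf1 KO. Atf3 was at or below 4.14 CPM in every morula library and averaged 2.39 ± 1.87 CPM in Ttf1 KO, 2.46 ± 1.42 CPM in Zfp622 KO and 0.16 ± 0.12 CPM in WT (adjusted p = 0.0056 and 0.00756).

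**Figure D5:**
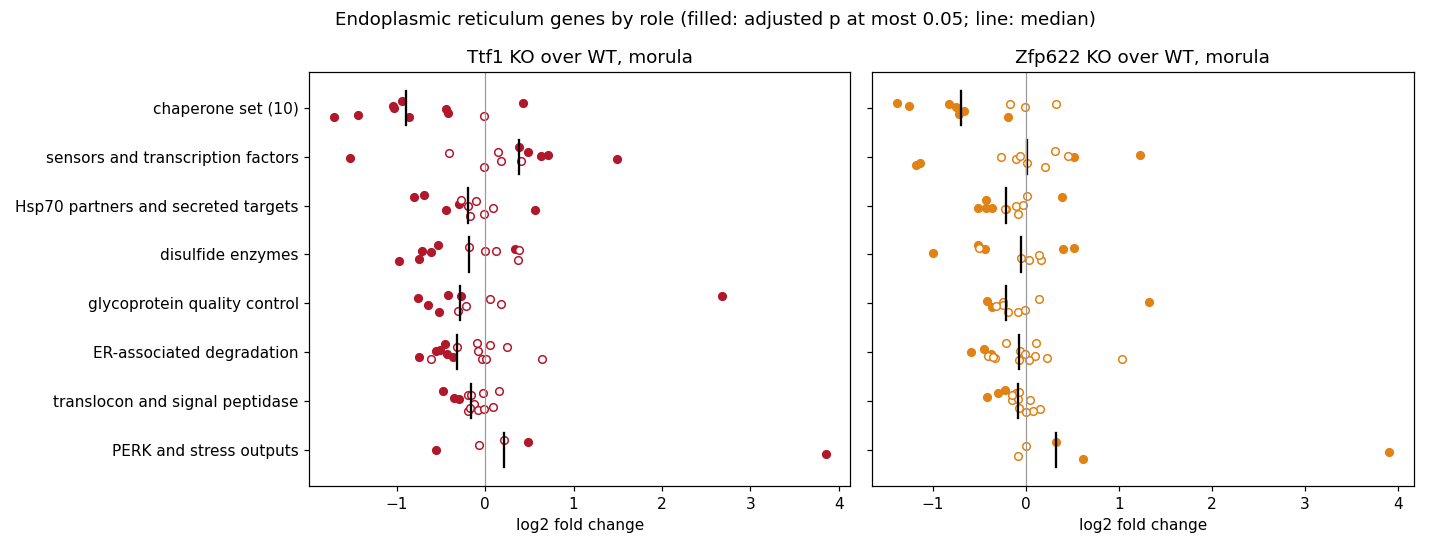
Log2 fold change at morula (horizontal axis) of the 10 genes (top row) and of 7 further lists of ER genes (other rows), for Ttf1 KO over WT (left) and Zfp622 KO over WT (right); each point is a gene, filled where called, and the line marks the list's median. The 10 genes have medians of -0.90 and -0.69, and the sensors and transcription factors hold both Nfyb at 1.49 and Xbp1 at -1.53 in Ttf1 KO.

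At L2C 2 of 76 wider genes were called higher in Ttf1 KO, Ube2g2 (0.62) and Creld2 (0.45), and 1 lower, Manf (-0.40, adjusted p = 0.0283). Of all genes tested 1.54% were called there. The higher calls dropped to 0 without WT library 3 or 4 and to 1 without WT library 2, Ttf1 KO library 1, 2 or 4 or Zfp622 KO library 4, and the lower call was lost without WT library 2 or 4 or Ttf1 KO library 2, 3 or 4. In Zfp622 KO 0 were called by edgeR (0.0179% of all genes) or by DESeq2. By edgeR 8 had an unadjusted p under 0.05, as did 1079 of 16770 genes tested. Between the WT stages 43 of 78 were higher at morula, 24 lower and 11 neither, where 37.9% of all genes were higher and 46.1% lower. All 13 translocon and signal peptidase genes were higher, with Spcs3 at 4.17, Sec11c at 3.29 and Ssr4 at 3.16. Called higher too were 9 of 15 degradation genes (Ufd1 3.02, Vcp 2.24), with 5 lower (Selenos -1.52), 7 of 11 Hsp70 partners and secreted targets (Dnajc10 2.00), with 2 lower, and 5 of 11 disulfide enzymes (Pdia5 3.63, Txndc12 3.53), with 2 lower. The glycoprotein list had 5 higher and 5 lower of 11. Of the stress outputs 1 of 6 was higher and 4 were lower, Ppp1r15a by -2.82 and Trib3 by -2.18, and of the sensors and transcription factors 3 of 11 were higher and 6 lower, with Nfya at -2.50 and Eif2ak3, which encodes PERK, at -2.72, against Atf6 at 2.66 and Xbp1 at 4.31.

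Of the 10 genes 3 lie on the chromosome arm of a targeted gene, distal to it. Hspa5 lies 5.68 Mb and Pdia3 92.3 Mb distal to Ttf1 on chromosome 2, and Derl1 31.9 Mb distal to Zfp622 on chromosome 15. In Ttf1 KO morulae 280 of the 951 genes tested distal to Ttf1 were called lower, where 17.9% of all genes were. The distal genes had a median of -0.16, beside 0.04 over all genes. Called lower were 35 of 128 genes within 5 Mb of Hspa5, with a median of -0.04 over the 128, against -1.71 for Hspa5 itself. Within 5 Mb of Pdia3 it was 29 of 97 genes, with a median of -0.19 over the 97, against -0.42 for Pdia3. In Zfp622 KO morulae 90 of the 476 genes distal to Zfp622 were called lower, where 13.5% of all genes were, with a median of -0.06. Of 30 genes within 5 Mb of Derl1, 3 were called lower, with a median of -0.02, against -0.72 for Derl1. At L2C 1.54% of all genes were called in Ttf1 KO, higher and lower calls together. Of 1015 genes distal to Ttf1, 22 were called lower there, with a median of -0.11 over the 1015. In Zfp622 KO at L2C it was 0 of 547 genes distal to Zfp622, with a median of -0.04. The part of position in these falls was not tested. The other 7 genes lie on chromosomes other than 2 and 15. Antisense reads cannot be separated without strand; the most abundant overlapping genes on the other strand averaged 74.3 counts per library at Pdia6 (985 counts), 44.2 at Pdia3 (7267 counts) and 43.7 at Hsp90b1 (1326 counts).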

How the data were processed

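The deposited values are whole-number read counts per gene, made by the authors, per the file headers, with featureCounts 2.0.1 on Ensembl 99 genes of GRCm38, by exon, for read pairs and without strand. HISAT2 2.2.1 is named in the submitters' processing notes. Titles gave the groups, because the genotype field of the Zfp622 KO libraries counts upward from one library to the next. The number that ends the strain field counts upward too, and the strain was read as B6D2F1 for all.

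Genes that pass edgeR's filterByExpr were tested with edgeR 4.0.16 (R 4.3.3): TMM factors, quasi-likelihood F test, robust, Benjamini-Hochberg adjustment over all genes tested. Knockout contrasts were fitted on the 12 libraries of a stage, stage contrasts and interactions on all 24. SE is the absolute log2 fold change over the square root of F. CPM used TMM-scaled totals of all 24 libraries. The precision of a contrast follows the spread between libraries. Same-numbered libraries of different groups did not deviate together. No library pair was a duplicate. Alternatives were DESeq2 1.42.0, other scalings, no filter, a replicate block, each library left out, and lane 2 libraries only. Further fits left out the WT libraries with a second number in their column headers.

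The 10 genes, the 7 ER lists and the marker lists were chosen with earlier results of these data known. Genes named from a list were its 3 smallest p-values per contrast among those called. Genes named for likeness to Hspa5 were the 6 highest correlations among named genes with a group mean of at least 5 CPM.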

Additional observations from a re-analysis of the deposited data

Results flagged for a closer look

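Hspa5 in Ttf1 KO morulae had 1 library far from the others of its group: library 4 at 475.5 CPM, against 182, 219.7 and 179.5 CPM in the other 3. That library was also the highest of its group for Hsp90b1 (184 CPM), Calr (254 CPM), Pdia4 (102 CPM) and Pdia6 (119 CPM), but not for Canx, Pdia3, Dnajb9, Sdf2l1 or Derl1. Without it the fall of Hspa5 in Ttf1 KO was -2.19 and that of Hsp90b1 -2.03. Dnajb9 in Zfp622 KO at L2C had library 2 at 1558.0 CPM, against 1213 to 1261 CPM in the other 3. These were 2 of 60 sets of 4 libraries looked at, and chance alone marks about 1 set in 20.

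The effect of Ttf1 KO was called different between morula and L2C, by the test of the difference itself, for 8 genes. That of Zfp622 KO was for 3. Of all genes tested 21.2% and 10.7% were called. The log2 differences (morula effect minus L2C effect) in Ttf1 KO were -1.65 for Hspa5, -1.17 for Derl1, -1.12 for Pdia6, -1.09 for Calr, -0.99 for Pdia4, -0.72 for Sdf2l1, -0.28 for Pdia3 and 0.47 for Dnajb9. In Zfp622 KO they were -1.4 for Hspa5, -0.84 for Derl1 and -0.67 for Pdia4. Of 24 fits that left out a library, the Ttf1 KO call of Dnajb9 was lost in 11 and that of Pdia3 in 7. The Zfp622 KO call of Pdia4 was lost in 17 and that of Hspa5 in 4. Without the WT libraries with a second header number, 0 genes were called lower for Zfp622 KO.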

How the results depend on the processing

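The falls of Hspa5, Calr, Pdia3, Pdia4, Pdia6, Sdf2l1 and Derl1 in Ttf1 KO morulae and of Derl1 in Zfp622 KO morulae were called under every alternative run, at their own contrast. Where a count or value moved, the cause was not tested. Of the 10 genes Derl1, at 10.04 to 24.2 CPM, had the largest SE at L2C (0.20), and lane cannot be told apart from Ttf1 KO. With DESeq2, all genes called numbered 732 in Ttf1 KO at L2C (258 by edgeR), 21 in Zfp622 KO at L2C (3 by edgeR), 303 between the knockouts at morula (34 by edgeR) and 75 at L2C (6 by edgeR); of the 10 genes 1 was lower in Ttf1 KO at L2C, 1 was lower between the knockouts at morula and 0 had a higher Ttf1 interaction, as also with DESeq2 size factors in edgeR. Without a filter the same 4 counts were 769, 88, 368 and 84, and in Zfp622 KO the 10 genes had 3 lower and 1 higher at morula and 6 lower interactions. Total counts as the scale left 4 of 10 lower in Zfp622 KO morulae.

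The replicate numbers did not pair the libraries (correlations of same-numbered libraries from -0.249 to 0.14). With a replicate block, 4 of 10 were lower in Zfp622 KO morulae, with Hspa5 at -1.33 (adjusted p = 0.0549), and genes called between the knockouts numbered 15 at morula and 3 at L2C. Lane 2 libraries alone, chosen after seeing the data, gave 5 lower interactions and 1 gene higher at morula in Zfp622 KO. Without the WT libraries with a second header number, all genes called numbered 3553 in Ttf1 KO morulae and 2043 in Zfp622 KO morulae. They numbered 66 in Ttf1 KO at L2C and 7 between the knockouts at morula. The Ttf1 interaction had 2132 and the Zfp622 interaction 646. Of the 10, 0 were then higher in Ttf1 KO morulae or its interaction. In Zfp622 KO 1 was lower at morula and 0 in its interaction. Of the wider 76 genes 6 were then higher in Ttf1 KO morulae (10 with all libraries), and 4 higher and 11 lower in Zfp622 KO morulae (9 and 19 with all libraries).

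Values not called and near 0 changed sign. Canx in Ttf1 KO at L2C had 0.000331 with DESeq2, 0.000403 with its size factors and 0.0252 with total counts. It had 0.00914 without the WT libraries with a second header number. The Canx interaction of Zfp622 KO had -0.00454, -0.00449 and, without a filter, -0.0452, and Canx in Zfp622 KO morulae 0.00493 on lane 2 and 0.00755 with total counts. Hspa5 in Zfp622 KO at L2C had -0.00252 without a filter, -0.00724 with the block and -0.0202 without those WT libraries. Calr there had 0.00731 with total counts and 0.0168 without those libraries. Pdia6 in Ttf1 KO at L2C had -0.00214 without them, and Dnajb9 between the knockouts at L2C 0.00826 with total counts.

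With each library left out, all genes called ranged from 60 to 464 in Ttf1 KO at L2C, 2 to 7 in Zfp622 KO at L2C, 2 to 150 between the knockouts at morula, 1 to 8 between them at L2C and 1339 to 2185 for the Zfp622 interaction. Of the 10 genes, 0 to 1 were higher in Ttf1 KO morulae, in its interaction and in Zfp622 KO morulae, 0 to 1 lower in Ttf1 KO at L2C, 2 to 7 lower in Zfp622 KO morulae and 1 to 5 in its interaction. Values that changed sign ranged, in Ttf1 KO, from -0.0475 to 0.017 for Canx at morula, -0.0656 to 0.0232 for its interaction, and at L2C -0.0464 to 0.0336 for Canx, -0.0227 to 0.0769 for Calr and -0.0303 to 0.167 for Pdia6. In Zfp622 KO they ranged from -0.0566 to 0.00592 for Canx at morula, -0.0204 to 0.0498 for its interaction, and at L2C -0.0998 to 0.0674 for Calr, -0.0435 to 0.207 for Derl1, -0.0748 to 0.0648 for Hspa5, -0.0568 to 0.00695 for Pdia3 and -0.0879 to 0.030 for Sdf2l1. Between the knockouts they ranged from -0.0407 to 0.0269 for Canx and -0.751 to 0.024 for Hsp90b1 at morula, and at L2C -0.0358 to 0.126 for Calr, -0.00855 to 0.0737 for Canx and -0.0505 to 0.0701 for Dnajb9.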
